A study of Mus musculus with 70 samples.

Results

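The mitochondrial solute carrier genes are the SLC25 family, and were taken as every gene of the expression table whose symbol is Slc25a followed by a number. This gave 40 of 14260 genes, which together held 0.303% of the normalized counts. They were measured by poly-A RNA-seq in the hippocampus of 69 mice. The question was how their RNA levels differ with feeding, with the time of sacrifice and with the APP23 transgene.

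In the APP23 line the Thy1 promoter, active in neurons, drives a mutant human APP that is linked to inherited Alzheimer disease. Transgenic mice (TG) and non-transgenic littermates (NTG) were kept either with free access to food (ad libitum feeding, ALF) or with food offered for 6 h in the active phase, between Zeitgeber times (ZT) 15 and 21 (time-restricted feeding, TRF). Lights went on at ZT0 and off at ZT12. Restricted feeding began at an age of 6 to 9 months and tissue was taken at 10 to 13 months, from 1 hemibrain of each mouse. The NTG mice were 16 on ALF and 16 on TRF, and the TG mice 19 on ALF and 18 on TRF. Over the times of sacrifice, ZT0, ZT6, ZT12 and ZT18, there were 25, 11, 23 and 10 mice. The sex of each mouse is not given in the labels.

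SLC25 proteins are small carriers with repeated membrane-spanning segments, and most sit in the inner mitochondrial membrane, where they exchange metabolites that cannot cross it freely. The adenine nucleotide translocators bring ADP in and ATP out. The aspartate-glutamate carrier and the oxoglutarate-malate carrier together run the malate-aspartate shuttle, by which neurons pass reducing equivalents from cytosolic NADH to the respiratory chain. Not every member is at that membrane: the protein of Slc25a17 is peroxisomal and that of Slc25a46 lies in the outer mitochondrial membrane.

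Promoter sequence is shown for 4 members that had higher RNA levels at ZT12 than at ZT0. Slc25a11 and Slc25a17 had the smallest p-values of all members, and Slc25a33 and Slc25a1 were the members higher at ZT12 whose window held the E-box CACGTG, the element that the clock proteins CLOCK and BMAL1 bind. Each line gives the 250 bases before the RefSeq start of the gene (GRCm38.p6), 5′ to 3′ on the strand of the gene. RefSeq starts can differ from the GENCODE positions given further on. By those positions the window of Slc25a11 lies within the gene, and those of Slc25a17 and Slc25a33 reach into it. Capitals mark matches to the E-box or, on either strand, to the GC box GGGCGG bound by SP1.
Slc25a11 (chr11:70647040-70647289, minus strand): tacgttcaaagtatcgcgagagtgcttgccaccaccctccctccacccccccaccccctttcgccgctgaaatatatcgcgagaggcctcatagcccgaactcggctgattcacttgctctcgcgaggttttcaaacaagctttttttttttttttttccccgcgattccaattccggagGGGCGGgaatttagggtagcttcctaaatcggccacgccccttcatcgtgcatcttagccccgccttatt
Slc25a17 (chr15:81360766-81361015, minus strand): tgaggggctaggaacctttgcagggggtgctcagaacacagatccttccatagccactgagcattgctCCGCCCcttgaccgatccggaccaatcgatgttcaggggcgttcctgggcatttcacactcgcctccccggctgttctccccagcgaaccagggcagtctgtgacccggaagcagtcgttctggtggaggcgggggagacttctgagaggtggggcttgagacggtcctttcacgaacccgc
Slc25a33 (chr4:149774268-149774517, minus strand): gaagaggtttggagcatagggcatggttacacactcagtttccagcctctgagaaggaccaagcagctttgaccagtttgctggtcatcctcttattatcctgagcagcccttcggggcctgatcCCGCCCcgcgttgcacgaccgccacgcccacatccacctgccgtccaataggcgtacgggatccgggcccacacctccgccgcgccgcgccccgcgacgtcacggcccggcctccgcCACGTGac
Slc25a1 (chr16:17928220-17928469, minus strand): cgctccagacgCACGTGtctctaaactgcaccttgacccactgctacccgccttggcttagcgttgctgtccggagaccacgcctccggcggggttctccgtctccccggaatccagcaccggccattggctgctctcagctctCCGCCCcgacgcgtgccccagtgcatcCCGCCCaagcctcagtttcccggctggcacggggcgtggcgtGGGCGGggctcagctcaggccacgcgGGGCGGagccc

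RefSeq gave such a window for 31 of the 40 members, reaching from 250 bases before to 50 bases after the start. Within these 300 bases, on both strands, the E-box was present in 6 of 31 members (19.4%), against 11.5% of the 11019 genes of the table that have a window. The 6 were Slc25a1, Slc25a13, Slc25a14, Slc25a15, Slc25a33 and Slc25a36. Of the 13 members higher at ZT12 that have a window, 2 held it (15.4%), and of the 18 other members with a window, 4 (22.2%). The GC box was present in 27 of 31 members (87.1%) and in 68.2% of those genes. No member window held the D-box TTATGTAA, the ERR element TCAAGGTCA or the NRF1 element, which were present in 0.726%, 0.336% and 2.21% of the genes with a window. These letter matches describe the sequence alone.

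Levels are given as normalized counts, in which the authors divided the reads of a gene by 1 factor per library, and between genes only per kilobase of annotated exon. The length counts every annotated exon of a gene, so the order between genes depends on the annotation. Slc25a3 had a mean of 8502 normalized counts over 5550 exon bases, and Slc25a5 of 7718 over 1646. Per kilobase the highest member was Slc25a4, the adenine nucleotide translocator of heart, muscle and brain, at 8804 normalized counts. It was followed by Slc25a5, another translocator, at 4689, and by Slc25a23, a calcium-regulated exchanger of ATP-magnesium for phosphate, at 3134. Slc25a11, the oxoglutarate-malate carrier, stood at 1718, Slc25a3, the phosphate and copper carrier, at 1532, and Slc25a22, a glutamate carrier, at 1248. Slc25a18, the other glutamate carrier, was at 1134, Slc25a44, a carrier of branched-chain amino acids, at 1106, and Slc25a12 (aralar), the aspartate-glutamate carrier of brain and muscle, at 949. Slc25a13 (citrin), the aspartate-glutamate carrier best known from liver, was at 46.3 per kilobase and ranked 36 of 40. The lowest was Slc25a47, a member mostly known from liver, at 25.3. The levels thus spanned from the 99.5th to the 7.53rd percentile of all genes per kilobase.

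**Figure D1:**
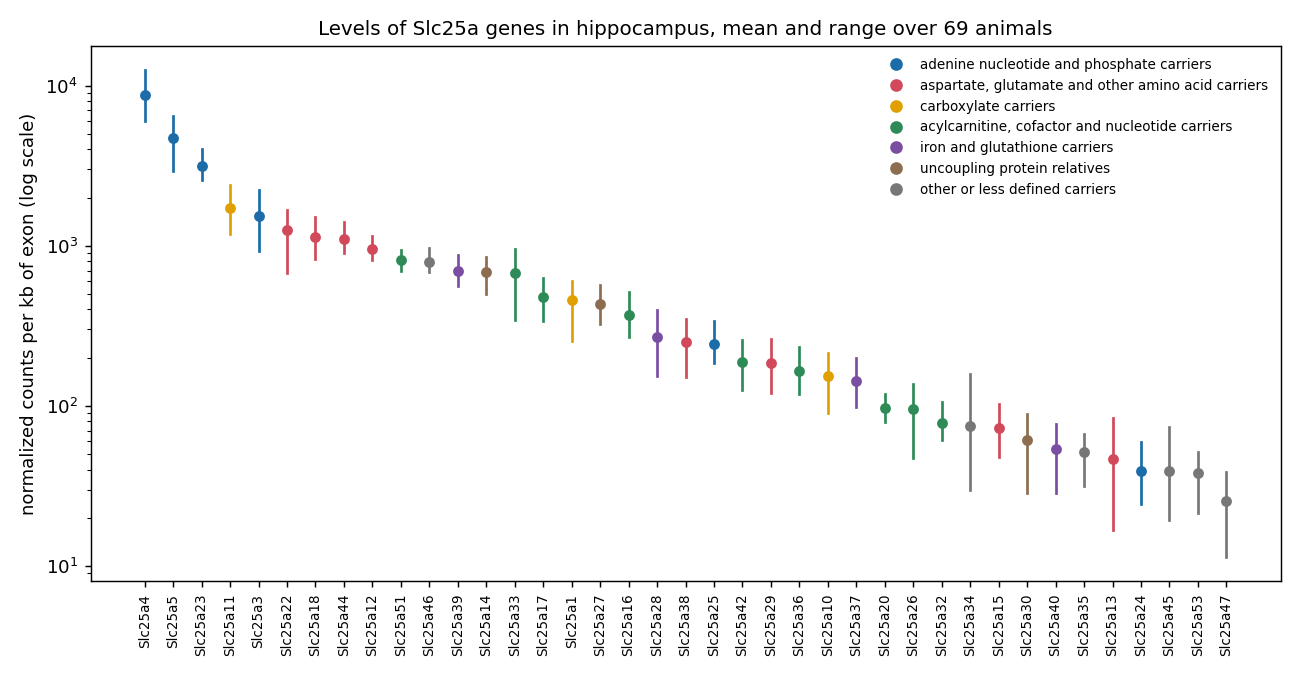
Mean level of the named members over 69 mice, in normalized counts per kilobase of exon on a log axis, ordered from high to low and coloured by role; lines span the lowest to the highest mouse. Slc25a4 stood at 8804 and Slc25a47 at 25.3.

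Within 1 group and time, the SD between mice on the log2 scale had a median of 0.19 over the members and of 0.21 over all genes. Slc25a51, the carrier that brings NAD into mitochondria, varied least, with an SD of 0.065. Slc25a13 varied most, with an SD of 0.43. Counts of some members may include reads of a neighbouring gene, since the strand setting of the counting is not stated. In Slc25a35, 31.3% of the exon bases overlap Rangrf. In Slc25a33 they overlap Gm13068 by 14.9%, and in Slc25a11 they overlap Rnf167 by 8.92%. Slc25a5 has a named pseudogene.

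Neuronal, astrocytic and oligodendrocyte markers were present in every mouse: Snap25 never fell below 47606 normalized counts, Slc1a2 below 64380 or Mbp below 69103. Markers of the choroid plexus, which lies beside the hippocampus, varied far more: Ttr ran from 27.6 to 215418 and Aqp1, Tmem72 and Slc4a5 reached 0 in some mice. In bulk tissue, fewer cells of a type and less RNA per cell cannot be told apart. Libraries held an estimated 27.9 to 47.1 M reads over the listed genes (median 37.2 M), inferred from the spacing of the normalized values. Of the 5 libraries of lowest correlation with the rest, 4 were at ZT0 and 1 at ZT12. Those at ZT0 were 2 NTG and 2 TG mice on ALF, and that at ZT12 was a TG mouse on TRF. Counts of called members between ZT12 and ZT0 and between ZT18 and ZT6 are given with and without these 5. The same holds for feeding in TG, in NTG, averaged over genotype, at ZT0 and at ZT12, and for genotype on ALF. The counts by role and the estimates within groups are given with all libraries alone. So are the lists of transport partners, the cell type markers and the slopes on choroid plexus markers. All ZT6 and ZT18 mice carry animal numbers above 300, as do 2 of 25 mice at ZT0 and 1 of 23 at ZT12. The number series thus nearly coincides with these times, so ZT12 was compared with ZT0, and ZT18 with ZT6.

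At ZT12, when the lights go off, more members were higher than at ZT0 than lower. With limma's moderated test and an adjusted p under 0.05, 14 of 40 members were higher and 1 was lower, against 14.4% and 13.6% of all genes (27.9% in either direction). The estimate was above 0 for 28 of 40 members, with a median of 0.086 on the log2 scale, and for 7243 of 14260 genes, with a median of 0.0028. By role, the 14 were 3 of 3 carboxylate carriers, 4 of 8 amino acid carriers, 3 of 6 adenine nucleotide and phosphate carriers, 3 of 10 acylcarnitine, cofactor and nucleotide carriers and 1 of 4 iron and glutathione carriers. None of 3 relatives of the uncoupling proteins and none of 6 less defined members passed the test.

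Without the 5 libraries of lowest correlation, 7 members were higher and 3 lower, against 8.25% and 8.98% of all genes, and the median estimate fell to 0.035 with 26 members above 0. Of the 15 called, 8 kept their call: Slc25a11 (0.14), Slc25a12 (0.13), Slc25a16 (0.17), Slc25a17 (0.18), Slc25a33 (0.18), Slc25a10 (0.21), Slc25a44 (0.16) and Slc25a51 (-0.074). The other 7 did not pass the test there, namely Slc25a1, Slc25a3, Slc25a4, Slc25a5, Slc25a22, Slc25a28 and Slc25a29. Slc25a38 (-0.17, adjusted p = 0.023) and Slc25a40 (-0.18, adjusted p = 0.024) were called lower there alone.

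Both carriers of the malate-aspartate shuttle that are abundant in brain were among the 8. Slc25a11 lies on chromosome 11 (70644196 to 70647479, GRCm38, minus strand). It ran from 2510 to 4024 normalized counts at ZT0 (median 3479) and from 3485 to 5050 at ZT12 (median 3837). The mice overlapped between the times, but the highest level was at ZT12. It was 0.20 ± 0.036 (SE) higher on the log2 scale (adjusted p = 1.63e-05). Slc25a12, on chromosome 2 (71271063 to 71367749), ran from 5995 to 7718 at ZT0 (median 6646) and from 6611 to 8449 at ZT12 (median 7223), a difference of 0.13 ± 0.029 (adjusted p = 0.00026). Slc25a13, the sister of Slc25a12, differed by 0.12 ± 0.13 and did not pass the test.

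The other carboxylate carriers were higher as well. Slc25a10, the dicarboxylate carrier, on chromosome 11 (120491840 to 120499187), ran from 313.5 to 649 at ZT0 (median 487) and from 453 to 740 at ZT12 (median 568.1). It differed by 0.27 ± 0.061 (adjusted p = 0.00058). Slc25a1, the citrate carrier, which exports citrate for lipid synthesis, differed by 0.16 ± 0.061 (adjusted p = 0.040), and by 0.063 without the 5 libraries (adjusted p = 0.45).

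Carriers of cofactors and nucleotides went both ways. Slc25a17, the peroxisomal carrier of coenzyme A and related cofactors, on chromosome 15 (81318911 to 81360812), ran from 959 to 1628 at ZT0 (median 1277) and from 1254 to 1755 at ZT12 (median 1457). The difference was 0.21 ± 0.040 (adjusted p = 3.79e-05). Slc25a16, on chromosome 10 (62920633 to 62946498) and related to coenzyme A transport, ran from 1299 to 2144 at ZT0 (median 1598) and from 1518 to 2265 at ZT12 (median 1866), a difference of 0.21 ± 0.043 (adjusted p = 0.00021). Slc25a33, a pyrimidine nucleotide carrier on chromosome 4 (149744036 to 149774277), ran from 649 to 1512 at ZT0 (median 1193) and from 1084 to 1800 at ZT12 (median 1331). It differed by 0.28 ± 0.060 (adjusted p = 0.00031), the largest estimate of the called members.
Slc25a51, on chromosome 4 (45395923 to 45408766), was the member that was lower. It ran from 4176 to 5187 at ZT0 (median 4582) and from 3861 to 4749 at ZT12 (median 4313), a difference of -0.084 ± 0.022 (adjusted p = 0.0033). When values were scaled by the library total it missed the threshold (adjusted p = 0.065).

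Several abundant carriers lost their call without the 5 libraries. Slc25a4, on chromosome 8 (46206797 to 46211284), ran from 14088 to 23691 at ZT0 (median 20403) and from 17268 to 27944 at ZT12 (median 21796). The difference was 0.16 ± 0.046 (adjusted p = 0.0059), and 0.095 without the 5 libraries (adjusted p = 0.10). Slc25a5, on chromosome X (36795651 to 36798807), ran from 4820 to 9377 at ZT0 (median 7572) and from 6612 to 9787 at ZT12 (median 8034). It differed by 0.15 ± 0.053 (adjusted p = 0.033), and by 0.057 without the 5 libraries (adjusted p = 0.44). For Slc25a3 the estimate went from 0.13 ± 0.050 (adjusted p = 0.039) to 0.017 (adjusted p = 0.77) without them, and for Slc25a22 from 0.16 ± 0.062 (adjusted p = 0.042) to 0.028 (adjusted p = 0.73). Slc25a23, the third in abundance, differed by -0.045 ± 0.036 and did not pass the test.

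Of the remaining called members, Slc25a28 (mitoferrin 2), an iron importer on chromosome 19 (43663801 to 43674881), ran from 577 to 1207 at ZT0 (median 973) and from 844 to 1486 at ZT12 (median 1047). It differed by 0.22 ± 0.068 (adjusted p = 0.011), and by 0.12 without the 5 libraries (adjusted p = 0.18). Slc25a44, on chromosome 3 (88410498 to 88425139), ran from 3227 to 4816 at ZT0 (median 3747) and from 3485 to 5035 at ZT12 (median 4129), a difference of 0.12 ± 0.041 (adjusted p = 0.028). In mice numbered below 300 alone Slc25a44 missed the threshold (0.098, adjusted p = 0.10). Slc25a29, a carrier of basic amino acids on chromosome 12 (108825873 to 108835883), ran from 313.1 to 595 at ZT0 (median 427) and from 347 to 596 at ZT12 (median 487). It differed by 0.18 ± 0.069 (adjusted p = 0.037), and by 0.14 without the 5 libraries (adjusted p = 0.17). In all of these the mice of both times overlapped. No member had ranges that did not overlap between ZT12 and ZT0, against 0.014% of all genes with every ZT12 mouse above every ZT0 mouse and 0% with every one below.

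**Figure D2:**
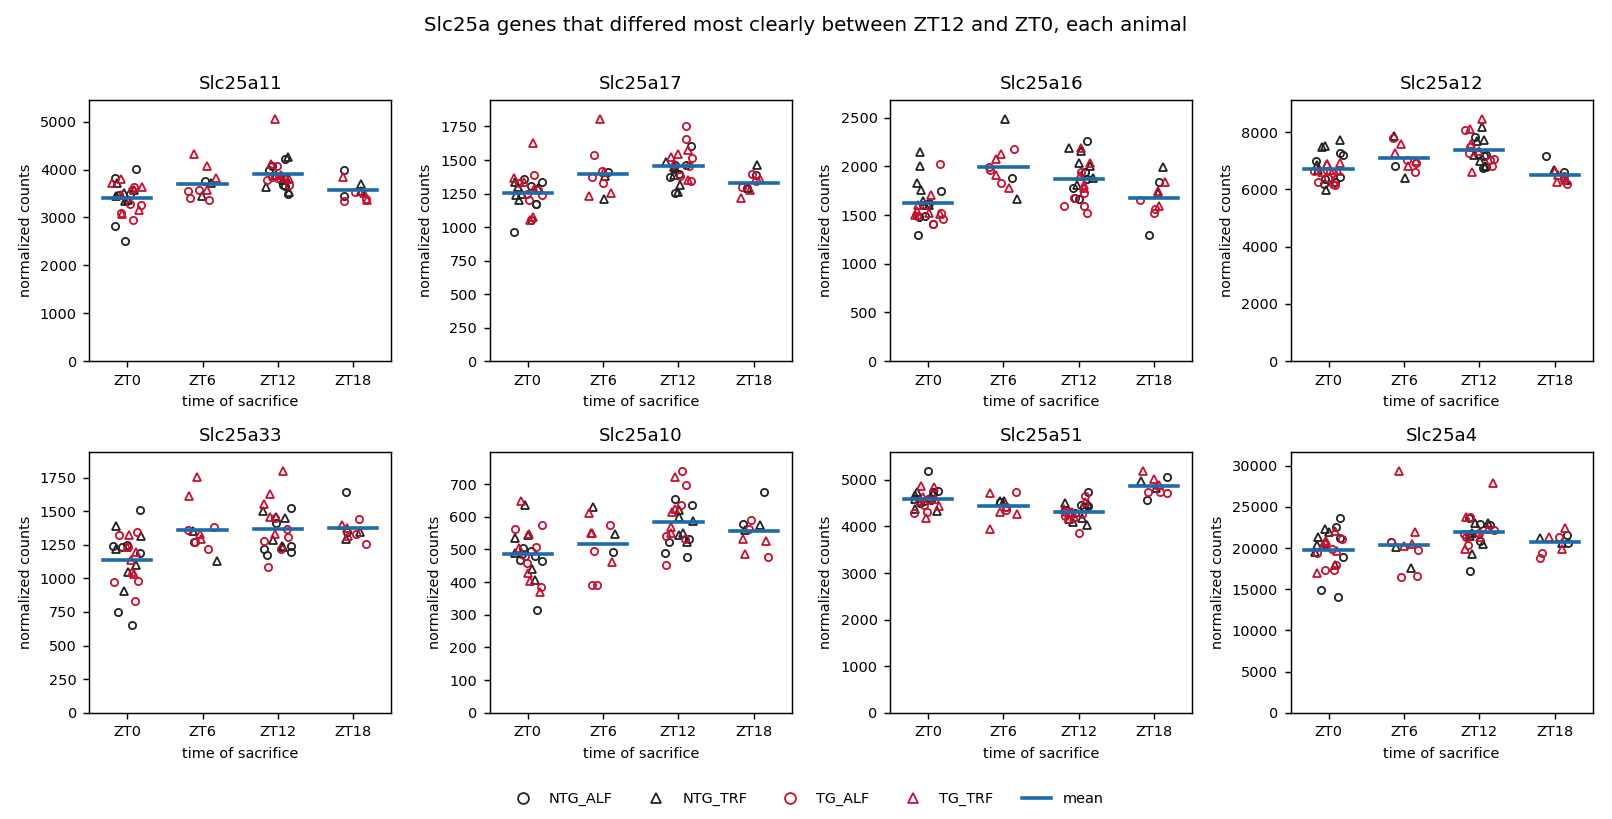
Normalized counts in each mouse by time of sacrifice for the 8 members with the smallest p-values between ZT12 and ZT0; black and red symbols are NTG and TG mice, circles ALF and triangles TRF, and bars are means. Slc25a11 ran from 3485 to 5050 at ZT12 against 2510 to 4024 at ZT0, while Slc25a51 was lower at ZT12.

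The 15 members were also read within each group of mice, where 5 to 7 mice stand at each of the 2 times. The sign was that of the pooled estimate for 14 of 15 in NTG on ALF, 14 in NTG on TRF, 15 in TG on ALF and 15 in TG on TRF, and for 13 in all 4 groups. The exceptions were Slc25a44 in NTG on ALF and Slc25a3 in NTG on TRF. Over the 14 higher members the median estimate was 0.21, 0.11, 0.22 and 0.23 in these groups. Of the 5 libraries of lowest correlation, NTG_ALF_107, NTG_ALF_1, TG_ALF_16 and TG_ALF_5 are ZT0 mice and TG_TRF_104 is a ZT12 mouse. NTG on TRF, with the median of 0.11, holds none of them. The estimates within groups were not computed without these libraries. These groups made up the pooled estimate and are no separate support for it. The difference between genotypes in this time change passed the test for no member (0% of all genes), with 2 members at an unadjusted p under 0.05. They were Slc25a44 (0.26 ± 0.079) and Slc25a34 (0.50 ± 0.21), both with an adjusted p of 0.989. In Slc25a44 the means at ZT0 and ZT12 were 4068 and 3913 in NTG on ALF, 3923 and 4015 in NTG on TRF, 3872 and 4389 in TG on ALF, and 3709 and 4612 in TG on TRF.

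Transport partners of the family were read from fixed lists, with all libraries alone. Over all genes 14.4% were higher and 13.6% lower at ZT12 than at ZT0. Without the 5 libraries of lowest correlation these shares were 8.25% and 8.98%. Of the pyruvate carrier and the porins, 4 of 5 were higher at ZT12 than at ZT0. Mpc1, a subunit of the pyruvate carrier, differed by 0.21 ± 0.043, and the porins Vdac1, Vdac2 and Vdac3 of the outer membrane by 0.10 ± 0.031, 0.12 ± 0.033 and 0.13 ± 0.035. Of the import route that inserts carriers into the inner membrane, 5 of 12 were higher and none was lower. These were the receptors Tomm20 (0.087 ± 0.033) and Tomm22 (0.24 ± 0.060) and the small chaperones Timm9 (0.33 ± 0.080), Timm10 (0.27 ± 0.10) and Timm10b (0.34 ± 0.10). Of the calcium uniporter and exchange list, 1 of 9 was higher (Mcur1, 0.099 ± 0.034) and 2 were lower, the gatekeeper Micu2 (-0.12 ± 0.034) and the sodium-calcium exchanger Slc8b1 (-0.50 ± 0.078). Among 9 regulators of mitochondrial biogenesis, Nrf1 (-0.13 ± 0.041) and Gabpa (-0.18 ± 0.043) were lower and none was higher.

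Cell type markers moved between the same times, where 14.4% of all genes were higher and 13.6% lower. They were read with all libraries alone. Of the markers of endothelium and pericytes 6 of 7 were lower at ZT12 (median -0.38), and of those of oligodendrocyte precursors 4 of 5 were lower (median -0.31). Their mean log2 level in a mouse ran, for endothelium and pericytes, from 8.88 to 10.24 at ZT0 and from 8.81 to 9.69 at ZT12. Of 9 neuronal markers 2 were higher (median 0.034). All 14 choroid plexus markers had estimates below 0 (median -0.60) and none passed the test, with mean log2 levels from 5.08 to 11.65 at ZT0 and from 5.36 to 11.34 at ZT12. With the choroid plexus level as a covariate, Slc25a22 missed the threshold (0.15, adjusted p = 0.053) and the other 14 members stayed called. The part of the other cell types in the result was not tested.

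Between ZT6, in the light, and ZT18, in the dark and within the feeding window of the TRF mice, 5 of 40 members were higher at ZT18 and 2 were lower, against 4.27% and 3.77% of all genes (8.04% in either direction). There were 11 mice at ZT6 and 10 at ZT18, with 1 to 4 in each group. Without the 5 libraries 9 members were called, against 11.3% of all genes, with Slc25a12 lower (-0.12, adjusted p = 0.045) and Slc25a15, an ornithine carrier, higher (0.23, adjusted p = 0.031) called there in addition. With all libraries these had an adjusted p of 0.065 and 0.081. Leaving out each of the 21 mice in turn gave 6 to 9 called members, against 6.21% to 9.01% of all genes. Slc25a29 lost its call without any 1 of mice TG_ALF_310 (adjusted p = 0.050), NTG_TRF_326 (adjusted p = 0.054) and TG_TRF_315 (adjusted p = 0.054).

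Slc25a38, the glycine carrier needed for haem synthesis, on chromosome 9 (120110374 to 120124504), ran from 468 to 700 at ZT6 (median 614) and from 733 to 918 at ZT18 (median 816). Every ZT18 mouse was above every ZT6 mouse, as in 0.407% of all genes, and the difference was 0.46 ± 0.10 (adjusted p = 0.0011). It was the single member without overlap. Slc25a42, a coenzyme A carrier on chromosome 8 (70184340 to 70212305), ran from 880 to 1259 at ZT6 (median 1005) and from 1100 to 1547 at ZT18 (median 1304), a difference of 0.34 ± 0.089 (adjusted p = 0.0075). Slc25a29 ran from 345 to 637 at ZT6 (median 475) and from 485 to 684 at ZT18 (median 598), a difference of 0.36 ± 0.10 (adjusted p = 0.020).

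Slc25a51 was higher at ZT18, from 4567 to 5193 (median 4861) against 3939 to 4741 at ZT6 (median 4424), by 0.13 ± 0.034 (adjusted p = 0.0069). Slc25a16 was lower, from 1300 to 1991 at ZT18 (median 1687) against 1666 to 2483 at ZT6 (median 1963), by -0.25 ± 0.066 (adjusted p = 0.0087). Slc25a18, a glutamate carrier mostly found in astrocytes, on chromosome 6 (120773578 to 120794336), was lower too. It ran from 1770 to 2055 at ZT18 (median 1884) and from 1856 to 2696 at ZT6 (median 2315), a difference of -0.26 ± 0.070 (adjusted p = 0.0099). The astrocyte markers had 1 of 8 higher and none lower between these times (median -0.055), against 4.27% and 3.77% of all genes. Slc25a51 and Slc25a16 thus passed the test in both time comparisons with opposite signs, and Slc25a29 was higher in both.

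**Figure D3:**
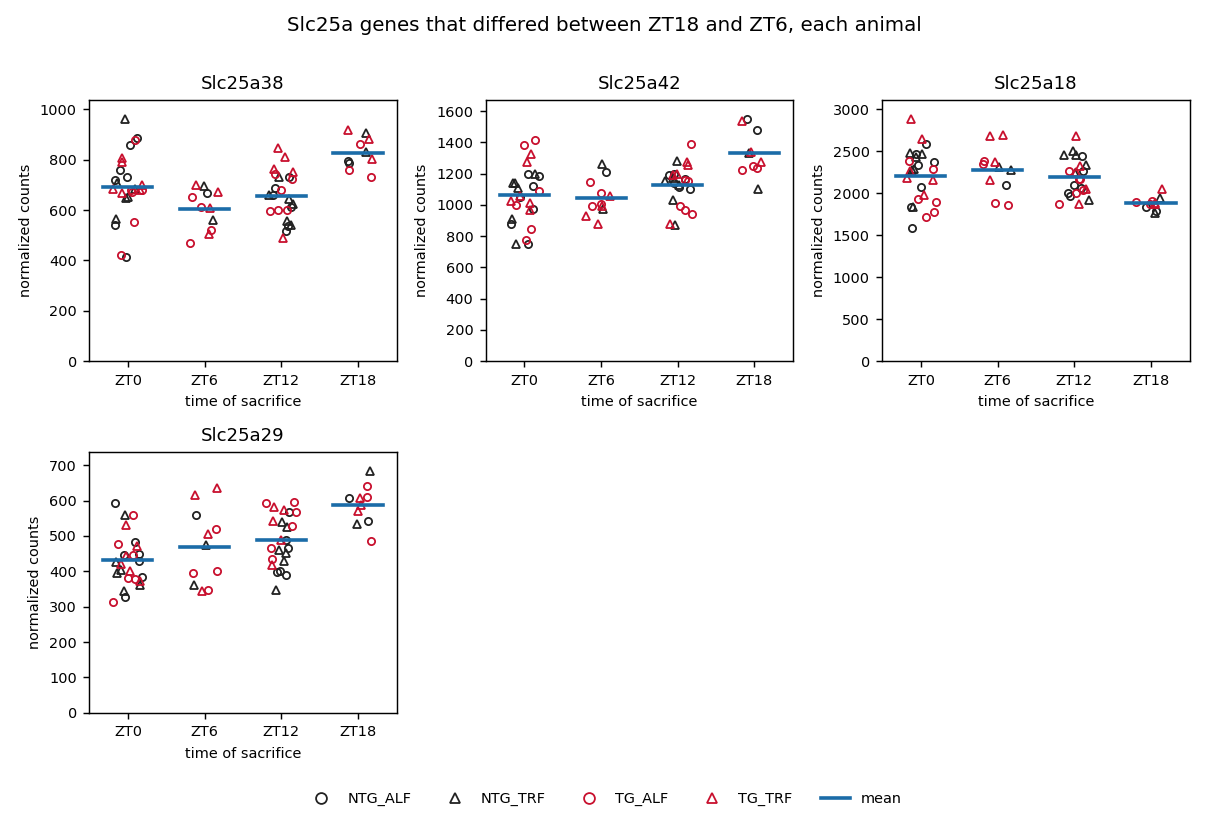
Normalized counts in each mouse by time of sacrifice for Slc25a38, Slc25a42, Slc25a18 and Slc25a29; symbols are mice, marked by group, and bars are means. In Slc25a38 the ZT18 mice (733 to 918) all lie above the ZT6 mice (468 to 700).

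Over all 4 times together, an F test found a difference in 16 of 40 members, against 35.6% of all genes. Of the 16, the fitted mean was highest at ZT0 in 1 (Slc25a23), at ZT6 in 2 (Slc25a16 and Slc25a18), at ZT12 in 7 and at ZT18 in 6. Among the 5073 genes of the table that passed, the counts were 1521, 1158, 1142 and 1252. Slc25a23 was 0.15 lower at ZT6 and 0.20 lower at ZT18 than at ZT0. All mice at ZT6 and ZT18 but only 3 of those at ZT0 and ZT12 carry numbers above 300, so that the place of ZT6 and ZT18 in these orders can hardly be told apart from the number series.

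**Figure D4:**
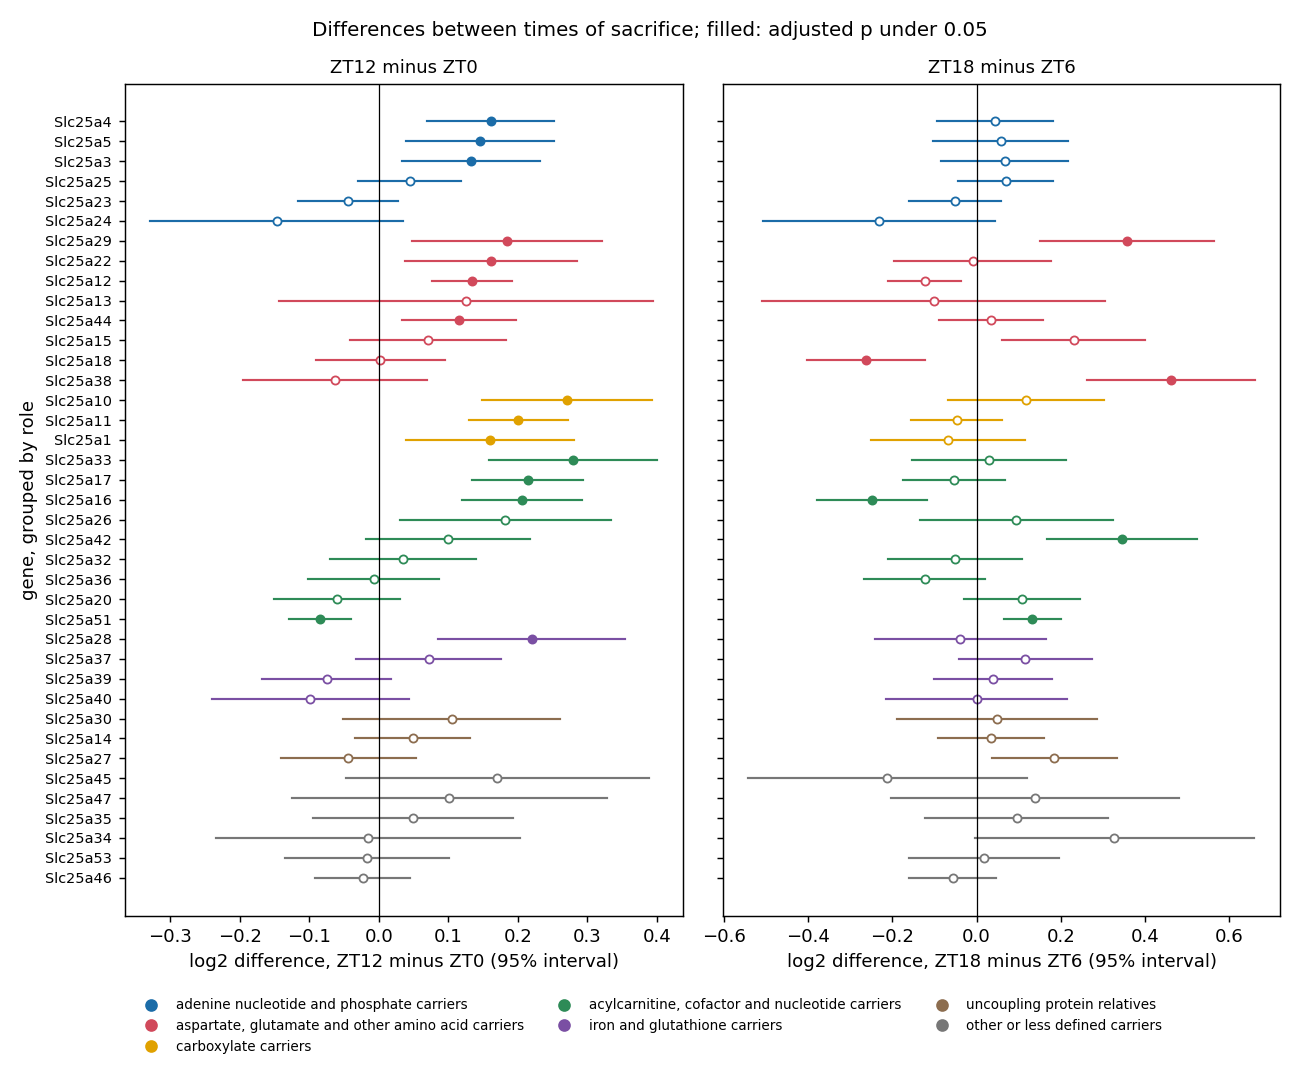
Estimated log2 differences of the named members between ZT12 and ZT0 and between ZT18 and ZT6, with 95% intervals; filled points passed an adjusted p under 0.05. Slc25a33 had the largest called difference at ZT12 (0.28) and Slc25a38 at ZT18 (0.46).

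Feeding was compared within each genotype, with a term for the time of sacrifice. In TG, TRF against ALF changed no member past the test with limma, against 0.196% of all genes higher and 0.344% lower (0.54% in all), with 8 members at an unadjusted p under 0.05. The estimate was above 0 for 29 of 40, with a median of 0.044 (all genes 0.0021). The 4 smallest p-values were those of Slc25a18 (0.16 ± 0.053, adjusted p = 0.12), Slc25a28 (0.20 ± 0.077, adjusted p = 0.17), Slc25a4 (0.13 ± 0.052, adjusted p = 0.19) and Slc25a11 (0.10 ± 0.041, adjusted p = 0.20). Slc25a18 ran from 1716 to 2385 on ALF (median 1927) and from 1873 to 2882 on TRF (median 2217). Slc25a28 ran from 640 to 1181 on ALF (median 932) and from 758 to 1486 on TRF (median 1043). Slc25a4 ran from 16474 to 23747 on ALF (median 19923) and from 17000 to 29366 on TRF (median 21049). Slc25a11 ran from 2947 to 4068 on ALF (median 3562) and from 3081 to 5050 on TRF (median 3801). All 4 overlapped between the diets. The libraries TG_ALF_16, TG_ALF_5 and TG_TRF_104, among the 5 of lowest correlation, are in this comparison. Without the 5 no member passed, against 0.0491% of all genes. Estimates averaged over genotype went without the 5 from 0.12 to 0.080 in Slc25a18 and from 0.16 to 0.092 in Slc25a28. They went from 0.080 to 0.032 in Slc25a4 and from 0.059 to 0.014 in Slc25a11. The count of 29 and the median of 0.044 are given with all libraries alone. Between TRF and ALF in TG, all 14 choroid plexus markers had estimates below 0 (median -1.47), as did 7 of 7 markers of endothelium and pericytes (median -0.24) and 7 of 7 oligodendrocyte markers. With the choroid plexus level as a covariate no member passed, against 0.14% of all genes. Slc25a13, the member with the steepest slope on that level, went from -0.25 to -0.041. The part of the endothelial and oligodendrocyte markers in the estimates was not tested.

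In NTG no member passed the test either, against 0% of all genes higher and 0.0281% lower, with 3 members at an unadjusted p under 0.05. NTG_ALF_107 and NTG_ALF_1, among the 5 libraries of lowest correlation, are in this comparison. Without the 5 no member passed, against 0% of all genes. The estimates that follow are given with all libraries alone. Slc25a16 ran from 1299 to 2265 on ALF (median 1671) and from 1602 to 2483 on TRF (median 1938), a difference of 0.19 ± 0.053 (adjusted p = 0.21). Slc25a37 (mitoferrin 1) ran from 756 to 1198 on ALF (median 926) and from 675 to 1133 on TRF (median 821), a difference of -0.16 ± 0.064 (adjusted p = 0.48). Slc25a47 ran from 37.0 to 110.1 on ALF (median 65.1) and from 42.5 to 115.6 on TRF (median 80.4), a difference of 0.31 ± 0.14 (adjusted p = 0.60). Slc25a34, a less defined member, ran from 145.5 to 308.8 on ALF (median 171) and from 123.8 to 422 on TRF (median 220.03), a difference of 0.26 ± 0.13 (adjusted p = 0.70).

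Averaged over genotype, Slc25a16 was the single member that passed, higher on TRF (0.13 ± 0.036, adjusted p = 0.036), against 0.701% of all genes higher and 0.975% lower (1.68% in all), with 7 members at an unadjusted p under 0.05. It ran from 1299 to 2265 in 35 mice on ALF (median 1650) and from 1504 to 2483 in 34 mice on TRF (median 1818). The call was lost without the 5 libraries (0.11, adjusted p = 0.19), without the time term (0.14, adjusted p = 0.12) and in ZT0 and ZT12 mice alone (0.15, adjusted p = 0.089). For 36 of 40 members the 95% interval of the averaged feeding difference lay within 1.2-fold in either direction. The difference in the feeding effect between genotypes passed for no member (0% of all genes), with 1 at an unadjusted p under 0.05. That was Slc25a25, a calcium-regulated exchanger of ATP-magnesium for phosphate (0.18 ± 0.062, adjusted p = 0.93), followed by Slc25a51 (0.064 ± 0.037) and Slc25a26 (0.20 ± 0.13).

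Feeding was also read at the 2 better filled times. NTG_ALF_107, NTG_ALF_1, TG_ALF_16 and TG_ALF_5, among the 5 libraries of lowest correlation, are ZT0 mice on ALF. Without the 5 no member passed at either time, against 0% of all genes at ZT0 and 0.021% at ZT12. The estimates that follow are given with all libraries alone. At ZT0 no member passed (0.021% of all genes higher, 0.0281% lower), with 7 at an unadjusted p under 0.05. Slc25a13 led these and ran from 139 to 317 in 13 mice on ALF (median 190) and from 63.3 to 209 in 12 mice on TRF (median 138). It differed by -0.53 ± 0.17 (adjusted p = 0.14), and by -0.34 ± 0.11 with the choroid plexus level as a covariate (adjusted p = 0.19). It was followed by Slc25a34 (0.36 ± 0.15), Slc25a47 (0.39 ± 0.16) and Slc25a18 (0.16 ± 0.067). At ZT12 no member passed (0.00701% of all genes higher, 0% lower), with 2 at an unadjusted p under 0.05, Slc25a16 (0.16 ± 0.063) and Slc25a34 (0.35 ± 0.15), followed by Slc25a33 (0.18 ± 0.091) and Slc25a37 (-0.15 ± 0.079). The change of the feeding effect between both times passed for no member (0% of all genes), with 1, Slc25a13, at an unadjusted p under 0.05 (0.71 ± 0.24, adjusted p = 0.97).

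The transgene was compared in the same way. On ALF no member differed between TG and NTG past the test (0.119% of all genes higher, 0.0701% lower), with 3 at an unadjusted p under 0.05. Slc25a25 had the smallest p, from 1630 to 2063 in TG (median 1780) and from 1646 to 2678 in NTG (median 2020), a difference of -0.17 ± 0.044 (adjusted p = 0.077). Without the 5 libraries it passed (-0.19, adjusted p = 0.049), as 1 of 40 members, against 0.203% of all genes in that fit. It was followed by Slc25a51 (-0.058 ± 0.027), Slc25a34 (-0.28 ± 0.13) and Slc25a17 (0.081 ± 0.048). On TRF no member passed (0.0982% of all genes higher, 0.0351% lower), with 3 at an unadjusted p under 0.05. Among these and the next were Slc25a14, a relative of the uncoupling proteins (0.12 ± 0.050), Slc25a16 (-0.12 ± 0.052) and Slc25a29 (0.15 ± 0.082). Slc25a25 on TRF ran from 1729 to 2183 in TG (median 1933) and from 1448 to 2328 in NTG (median 1958), so that the genotypes overlapped on either diet. On ALF all 14 choroid plexus markers had estimates above 0 in TG (median 1.80) and all 8 astrocyte markers below 0 (median -0.15). With the choroid plexus level as a covariate no member passed on ALF, against 0.182% of all genes. Slc25a13, the member with the steepest slope on that level, went from 0.085 to -0.17. The part of the astrocyte markers in the member estimates was not tested.

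Averaged over feeding, no member passed between 37 TG and 32 NTG mice (0.168% of all genes higher, 0.281% lower), with 3 at an unadjusted p under 0.05. Slc25a34 ran from 79.8 to 341 in TG (median 178) and from 123.8 to 422 in NTG (median 209), a difference of -0.25 ± 0.093 (adjusted p = 0.35). Slc25a14 ran from 1385 to 1999 in TG (median 1654) and from 1178 to 1792 in NTG (median 1628), a difference of 0.096 ± 0.036 (adjusted p = 0.36). Slc25a25 differed by -0.082 ± 0.032 (adjusted p = 0.41) and Slc25a16 by -0.070 ± 0.037 (adjusted p = 0.66). For 38 of 40 members the 95% interval lay within 1.2-fold in either direction, the other two being Slc25a34 and Slc25a47. A p that misses the threshold does not show that levels were equal, and these intervals give the size that the data leave room for.

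**Figure D5:**
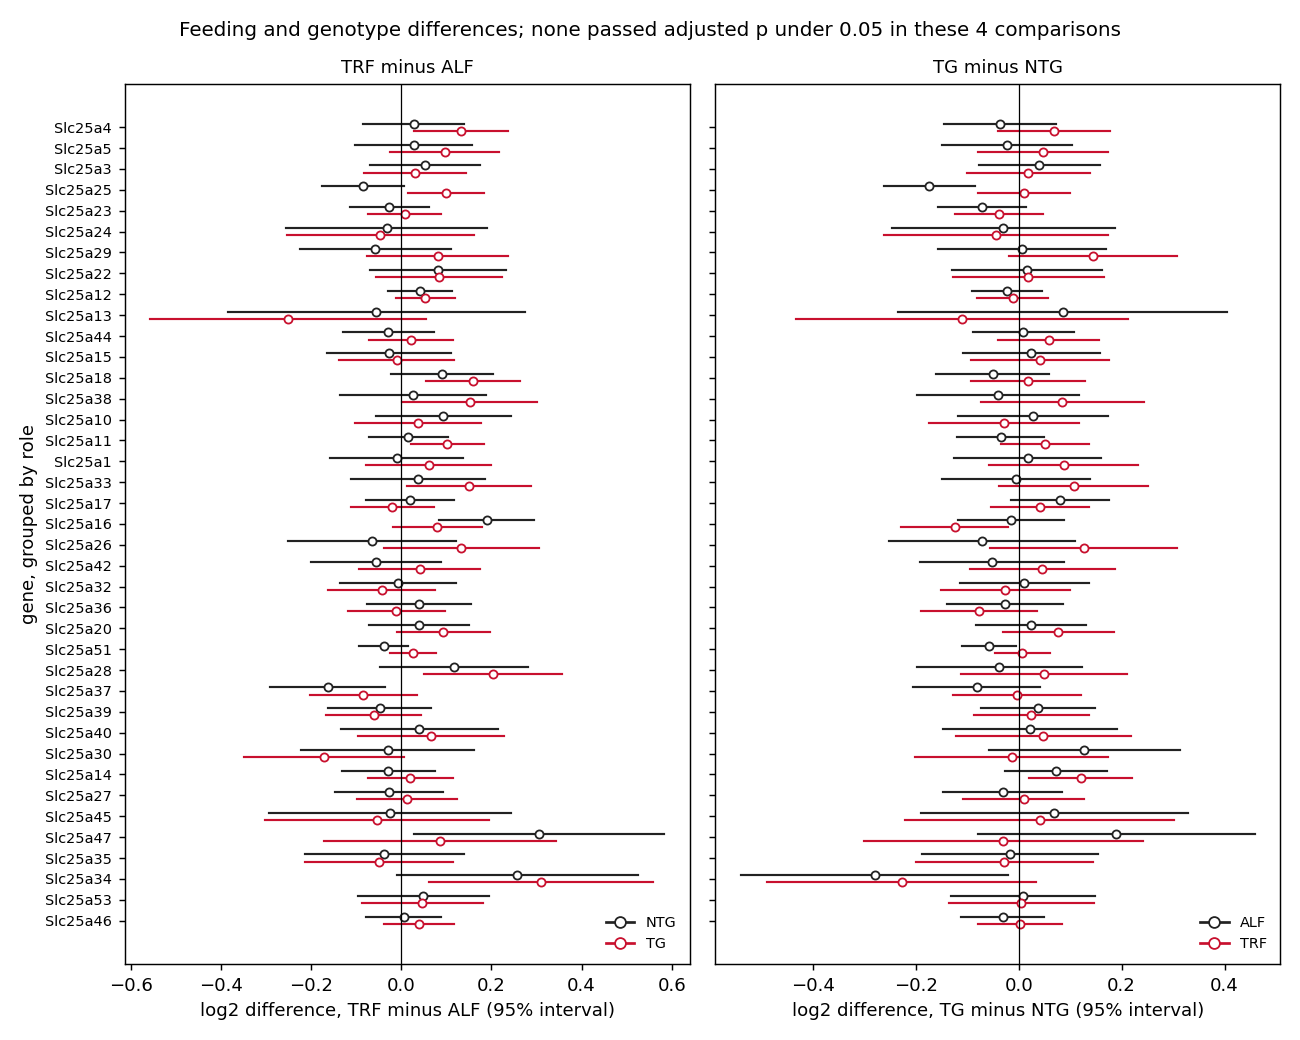
Estimated log2 differences of the named members with feeding (TRF minus ALF, in TG and in NTG) and with genotype (TG minus NTG, on each diet), with 95% intervals. No interval belongs to a member that passed an adjusted p under 0.05 in these 4 comparisons.

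A few members followed the choroid plexus markers from mouse to mouse, a relation read after values had been seen. In a fit with group and time as terms, 3 of 40 members had a positive slope on the mean log2 level of the 14 markers and 2 a negative one, against 6.53% and 3.45% of all genes. Slc25a13 had the steepest slope, at 0.14 ± 0.018 log2 units per log2 unit (adjusted p = 1.37e-09), and is the member that varied most between mice. Slc25a39, a glutathione carrier (0.032 ± 0.0075), and Slc25a30, a relative of the uncoupling proteins (0.045 ± 0.013), had positive slopes as well. Slc25a23 (-0.024 ± 0.0059) and Slc25a47 (-0.059 ± 0.019) had negative slopes. For Slc25a4 the slope was -0.0082 ± 0.0082 and for Slc25a11 it was -0.0025 ± 0.0065, both short of the threshold.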

How the data were processed

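Hippocampal poly-A RNA was read from both ends (150 bases, NovaSeq 6000), with trimming by Trimmomatic on Galaxy, per the labels' protocols. HISAT2, featureCounts and DESeq2, with GRCm38, are named in the submitters' processing notes; versions, annotation and strand setting are not given in the sources used here. The deposited values are a signal, normalized counts that the authors made by dividing each library's read counts by 1 factor. In all 70 libraries the values were whole multiples of 1 step, from which the read numbers were estimated. Normalized totals ran from 35.0 to 42.4 M. The lowest gene mean was 40.9, so genes under some level are not analysed here. Of 70 libraries, 232 and 232R of NTG on TRF were averaged as 1 animal, which the labels do not state, giving 69; an alternative used 232 alone.

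Values were log2 of the normalized count plus 1. A mean of at least 10 was required, which removed 0 genes. Every adjusted p is from limma 3.58.1 in R 4.3.3 (4 group means and a term per time, or a mean per group and time; eBayes with trend and robust), from 2-sided tests, adjusted after Benjamini and Hochberg across the 14260 genes, with calls under 0.05. The fit was tested on simulated data. Fold changes of low genes are understated by the added 1. Gene positions and exon lengths are from GENCODE M21.

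The values of 1 member, which is included in all counts, are not reported here. For the other members, values are given for called members, at most the 12 of smallest p, or else for the 4 of smallest p. The members and lists were chosen with earlier results of these data known. The slope on choroid plexus markers was added after values were seen. Alternatives changed the pseudocount (10), the filter (mean of at least 1000, or no filter), the scaling, the weights (voom), the animals or the terms.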

Additional observations from a re-analysis of the deposited data

Results flagged for a closer look

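The highest and lowest mouse were compared with their nearest neighbour by Dixon's test in sets of 4 to 10 mice. The values were the mean level of the members and the 6 members of smallest p between ZT12 and ZT0, by group and time, and the 7 members called between ZT18 and ZT6, at ZT18. It singled out 3 of 65 such sets, where chance alone gives about 1 in 20, or 3.25. In TG on TRF at ZT12, Slc25a11 stood at 5050 in mouse TG_TRF_104, with the next of 5 mice at 4116. This mouse is also 1 of the 5 libraries of lowest correlation, and the time difference of Slc25a11 is 0.14 without those. In TG on ALF at ZT0, Slc25a16 stood at 2025 in mouse TG_ALF_234, with the next of 6 mice at 1603. In NTG on ALF at ZT0, Slc25a10 stood at 313.5 in mouse NTG_ALF_107, with the next of 7 mice at 464. This mouse had the lowest correlation with the other libraries (0.940) and the lowest mean log2 level over the 40 members (9.81). That level was 9.90 in NTG_ALF_1, 9.95 in TG_ALF_5 and in TG_ALF_16, and 10.30 in TG_TRF_104. These mice make up the 5 libraries of lowest correlation, and in all other mice the level lay between 10.03 and 10.25.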

How the results depend on the processing

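For the 23 results of single members called in the main fit, 219 values were computed under alternatives. Results that were named but not called are not among them. Of the 219 values 17 were no longer past the threshold and 0 had the opposite sign. The 219 values include refits without the filter on low values. That filter removed 0 genes, so those refits equal the main fit and could not differ from it. Leaving out each ZT6 or ZT18 mouse gave 6 to 9 called members between these times (6.21% to 9.01% of all genes). Without the 5 libraries of lowest correlation the genotype difference on ALF had 1 called member (0.203% of all genes). The averaged feeding difference had 0 called members without those 5 libraries (4 at an unadjusted p under 0.05 by limma), 0 with no term for time (6) and 0 in ZT0 and ZT12 mice alone (7). Between ZT12 and ZT0, mice numbered below 300 alone gave 10 called members (22% of all genes), and Slc25a1, Slc25a3, Slc25a5, Slc25a22 and Slc25a44 missed the threshold. Scaling by library totals moved the median of all genes by at most 0.028. No paired analysis was possible because the groups share no animal numbers. Small groups at ZT6 and ZT18, down to 1 mouse, limit what those times can show.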
